A study of Mus musculus with 12 samples.

Results

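The imprinted growth-control genes are a group of genes that are expressed mainly from the copy inherited from 1 parent and that set how much a fetus, an organ or a cell population grows. The group taken here held 10 genes: H19, Igf2, Igf2r, Dlk1, Meg3, Peg3, Cdkn1c, Grb10, Plagl1 and Mest. On Affymetrix mouse arrays a gene is read by 1 or more probe sets, each a set of short probes designed for a transcript. A probe set was taken for a gene when that gene's symbol was the single symbol it carried. Whether a probe set also reads other transcripts was not tested. This gave 30 probe sets of 9 genes, out of 45101 probe sets and 18193 genes with a probe set of their own. H19 had none, because its probe set also carries the symbol of Mir675, the microRNA made from the H19 transcript, and H19 was therefore not analysed here. Igf2r had 1 more probe set that it shares with its antisense RNA Airn, which was left out as well.

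The arrays came from mouse pancreas and form 3 groups of 4, lettered A to D. Acini were exocrine acini, the clusters of cells that secrete digestive enzymes, used directly after isolation, with no strain or genotype in the sources used here. Ducts were organoids, 3-dimensional cultures in Matrigel, grown from native duct fragments picked by hand, again with no genotype given. yDucts were organoids grown from acini of R26-rtTA; tetO-YAP S127A mice. In these animals the tetracycline-dependent activator rtTA is made from the broadly active Rosa26 locus, so doxycycline can switch on an activated form of YAP, the effector of the Hippo pathway, in any cell of the acinar preparation. The organoids were passaged without doxycycline after this pulse. In separate mice with a genetic label limited to acinar cells, the study reported yDucts that kept the label over passages. Those are not the mice named for these arrays. Ducts and yDucts shared 1 organoid medium with B27, N-Acetylcysteine, gastrin, EGF, Noggin, FGF10, Nicotinamide and R-Spondin1, which Acini never saw. The study describes the donors of the acini used for yDucts as adult mice. The series asks how far yDucts had moved from acini and how close they were to native ductal organoids. The sample titles call a group's 4 arrays biological replicas A to D, and the study describes each as a separate biological sample. No source used here says whether they stand for 4 animals or 4 cultures. The p-values therefore refer to array-to-array spread, which need not be the spread between animals.

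In an imprinted region a methylation mark laid down in the egg or the sperm keeps 1 parental copy silent in the offspring's cells. As a rule of thumb, several paternally expressed members such as Igf2, Dlk1, Peg3, Plagl1 and Mest favour growth or the progenitor state, while several maternally expressed ones such as H19, Igf2r, Cdkn1c and Grb10 restrain it. Many of these genes are high in fetal organs, fall after birth and are known from stem and progenitor cells of adult tissues. The arrays measure the summed RNA of both copies and cannot tell the parental alleles apart, so they say nothing of the imprint itself. In these bulk samples, fewer cells of a type and less RNA per cell cannot be told apart.

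The promoters of the 3 members on which the results turn most are shown first, as the 250 bases before the transcription start, because the first of them holds both motifs that were searched for. The sequences are from RefSeq for mouse assembly GRCm38.p6, written 5′ to 3′ on the strand of the gene. Peg3, a zinc finger protein, lies on the minus strand with its upstream bases at chr7:6730420-6730669. Meg3, a long noncoding RNA, lies on the plus strand at chr12:109540746-109540995. Igf2r, the receptor that clears IGF2, lies on the minus strand at chr17:12769707-12769956. Capitals mark exact matches to GGGGCCCC, the letters searched for Plagl1 binding, or to CATTCC and its complement GGAATG, the letters searched for the TEAD factors through which YAP acts on DNA.
Peg3: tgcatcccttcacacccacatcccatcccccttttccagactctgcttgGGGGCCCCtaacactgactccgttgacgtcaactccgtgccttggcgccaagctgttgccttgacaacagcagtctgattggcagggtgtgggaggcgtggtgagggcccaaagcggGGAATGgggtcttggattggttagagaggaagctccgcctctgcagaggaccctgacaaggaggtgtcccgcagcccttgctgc
Meg3: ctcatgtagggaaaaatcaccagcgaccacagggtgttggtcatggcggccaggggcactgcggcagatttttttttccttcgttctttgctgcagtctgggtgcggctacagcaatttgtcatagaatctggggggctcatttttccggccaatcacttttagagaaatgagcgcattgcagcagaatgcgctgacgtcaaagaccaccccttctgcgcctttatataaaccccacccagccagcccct
Igf2r: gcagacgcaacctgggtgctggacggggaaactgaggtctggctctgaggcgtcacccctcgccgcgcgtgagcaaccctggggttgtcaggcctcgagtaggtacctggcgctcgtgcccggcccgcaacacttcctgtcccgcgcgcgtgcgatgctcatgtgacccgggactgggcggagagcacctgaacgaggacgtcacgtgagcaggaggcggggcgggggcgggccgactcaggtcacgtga
The table of promoters held 15 windows of 300 bases, from 250 before to 50 after a start, for 8 of the 10 members. GGGGCCCC occurred in 1 of the 15, that of Peg3, at position -201 counted from the start. The same letters occur in 354 of all 32851 mouse promoter windows, or 1.08%. The TEAD letters occurred in 4 of the 15, in Peg3 at position -84 and in 3 windows of Igf2, against 4817 of all windows, or 14.7%. The motifs do not overlap each other, and both strands were read. CG dinucleotides, the bases at which imprints are written, numbered from 1 to 45 in a window with a median of 13, against a median of 7 and quartiles of 3 and 20 over all windows. Peg3 had 13 of them and Igf2r had 34. A match is a description of the letters and not a binding site.

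The arrays themselves set limits that bear on every member. By Euclidean distance over the tested probe sets, Ducts C and D lay 48.7 apart but 117.6 to 146.6 from Ducts A and B, which was as far as C and D lay from yDucts (121.9 to 143.2). Ducts A and B lay 86.4 to 120.3 from yDucts. Each comparison was also fitted without either pair, and values from those fits are given where a call on Ducts changed. Acinar enzymes and transcription factors were lower in both organoid groups for 13 of 13 genes tested. The duct markers Tspan8 and Krt7 were higher by 8.19 and 7.11 (log2) in Ducts and by 8.29 and 6.28 in yDucts. Of the 10 duct markers tested, 6 were higher, 1 was lower and 3 were not called in each organoid group against Acini, and Sox9 and Cftr were not called in either. Acini also carried RNA of other pancreatic cell types. The endothelial list fell in both organoid groups for 14 of 14 genes. The fibroblast and pericyte list fell for 16 of 16 genes in Ducts and 15 of 16 in yDucts. Of all genes, 32.9% were called lower in Ducts and 32.3% in yDucts. The Gapdh control probe sets differed by 1.29 to 1.91 (log2) between the 3′ and the 5′ end on the Acini arrays, by -0.07 to 0.02 on the Ducts arrays and by -0.17 to -0.12 on the yDucts arrays. The part of these other cell types, of this difference in RNA ends and of the split within Ducts in the changes against Acini was not tested.

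Of the 30 probe sets, 27 passed a filter on low values, which asked for a level above the 30th percentile of the array on at least 4 arrays. The 3 that did not were 2 of 5 for Peg3 and 1 of 2 for Igf2. All values below are log2 levels as deposited, differences are in log2 units with the standard error (SE) of the limma model over all 12 arrays, and p-values are adjusted over all 33436 probe sets tested. A change is called at an adjusted p under 0.05. Probe sets of 1 gene read the same locus and are not independent of each other.

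Native ductal organoids differed from acini in both directions. Grb10 and Meg3 fell on most of their probe sets, Peg3 and Plagl1 fell on 1 of 3 each, Igf2r and Mest rose, and Igf2, Dlk1 and Cdkn1c gave no call. Of the 27 probe sets, 3 were higher in Ducts, 14 were lower and 10 were not called. Over all probe sets 40.0% were called higher and 31.2% lower, so calls are common in this comparison. The median difference was -0.56 over the member probe sets and 0.16 over all probe sets tested. The latter was -0.24 with no filter and 0.61 with a filter at the 50th percentile. It therefore depended on level, and several Meg3 and Grb10 probe sets were low. Meg3 supplied 9 of the 14 lower probe sets, and the counts of probe sets therefore follow that gene. With 1 probe set per gene 2 of the 9 genes were higher and 3 lower, and with the mean of a gene's probe sets 2 were higher and 2 lower.

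yDucts against acini gave a more mixed picture. Igf2r and Peg3 rose on each tested probe set, Grb10 fell on 2 of 3, Cdkn1c fell, and Meg3 had 5 probe sets lower and 1 higher. That higher Meg3 probe set passed the filter only through its level in yDucts, so its place in the counts is a description. Here 6 probe sets were higher, 9 were lower and 12 were not called, against 39.7% higher and 31.6% lower over all probe sets. The median difference was -0.40, against 0.13 over all. The latter was -0.26 with no filter and 0.62 with a filter at the 50th percentile. With each array centred on its own median the split was 8 higher and 5 lower. This comparison and the one before share the Acini arrays, so their values are not separate evidence.

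Between the organoids, 7 of the 27 probe sets were higher in yDucts, 0 were lower and 20 were not called. All 7 belong to Peg3 (3 of 3 tested) and Meg3 (4 of 11), and 1 of the Meg3 probe sets passed the filter only through its level in yDucts. At an unadjusted p under 0.05 in limma, 9 were higher and 1 was lower. Over all probe sets 1.57% were called higher and 0.757% lower. The median difference was 0.20 over the members and -0.02 over all. This comparison shares the Ducts and the yDucts arrays with the other two.

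**Figure D1:**
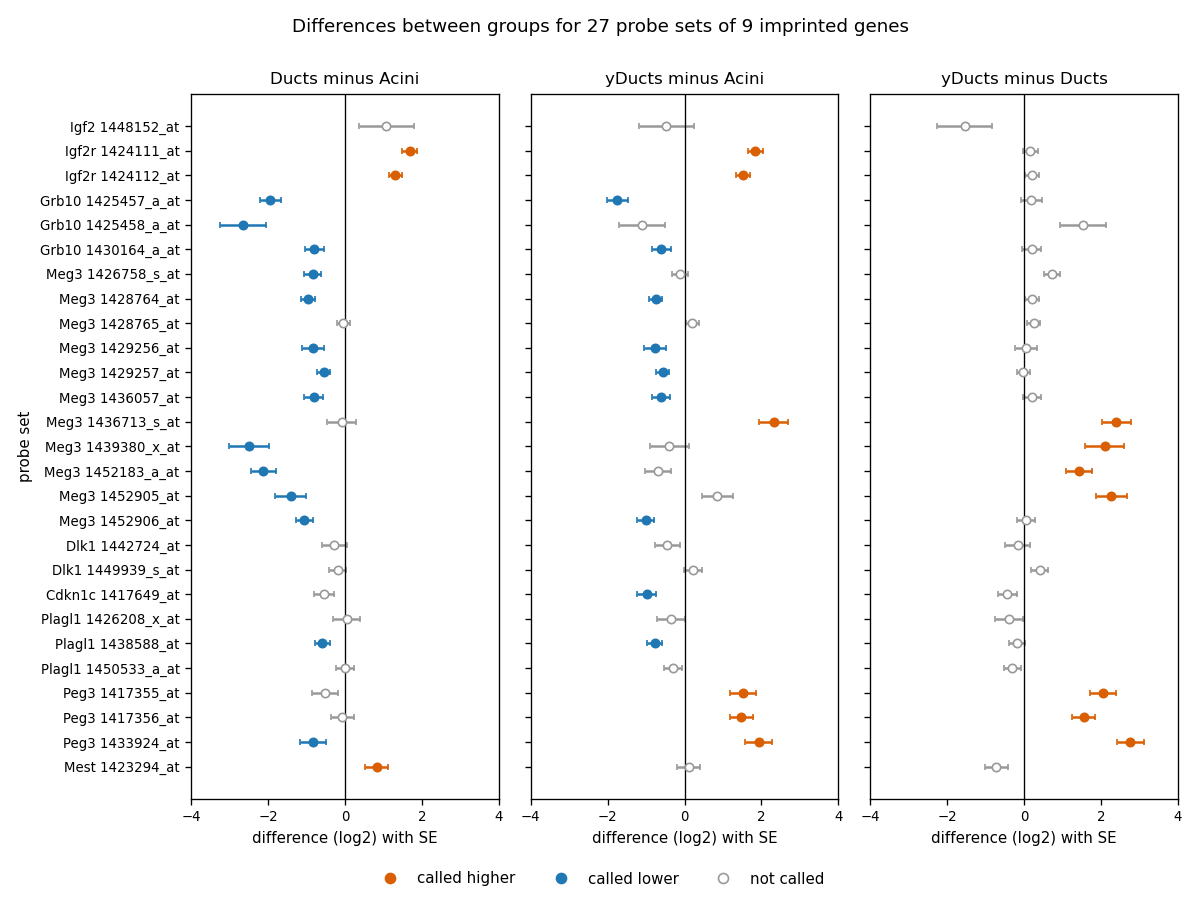
Difference (log2, with its SE) of each of the 27 tested probe sets of the imprinted growth-control genes in Ducts minus Acini, yDucts minus Acini and yDucts minus Ducts, with called differences marked. Igf2r lies above 0 in both comparisons with Acini, Grb10 below, and in yDucts minus Ducts the called differences are those of Peg3 and Meg3, all above 0.

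Igf2 encodes insulin-like growth factor 2, the fetal growth factor of the group. Its probe set 1448152_at read 4.74, 5.04, 4.87 and 5.92 on Acini A to D, 4.61, 4.44, 7.72 and 8.10 on Ducts A to D, and 4.35, 5.49, 4.24 and 4.61 on yDucts A to D. Ducts C and D stood far above every other array, while Ducts A and B lay within the range of yDucts. The mean difference of 1.07 (SE 0.721) between Ducts and Acini was not called (adjusted p = 0.195), nor was that of -1.54 between yDucts and Ducts (adjusted p = 0.384). With Ducts A and B left out, Igf2 was 2.77 higher in Ducts than in Acini (adjusted p = 5.00e-05) and the difference between yDucts and Ducts was -3.24 (adjusted p = 0.000165). With C and D left out, the difference between Ducts and Acini was -0.62 (adjusted p = 0.167) and that between yDucts and Ducts was 0.15, so both signs turned. The pairs were set by the distances over all probe sets, with the Igf2 values known. Leaving out Ducts B alone gave 1.67 between Ducts and Acini (adjusted p = 0.0391), and leaving out Ducts D alone gave 0.45 (adjusted p = 0.555). The other probe set, 1415931_at, stayed between 2.69 and 3.53 and was not tested.

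Igf2r is the cation-independent mannose 6-phosphate receptor, which carries enzymes to lysosomes and removes IGF2 from the cell surface. Its probe set 1424112_at read 8.81, 8.74, 9.04 and 8.49 on Acini A to D, 10.54, 10.05, 9.86 and 9.88 on Ducts A to D, and 10.35, 10.19, 10.44 and 10.17 on yDucts A to D. Every organoid array lay above every Acini array, and the organoid groups overlapped. The level was 2.48-fold higher in Ducts (1.31, SE 0.18, adjusted p = 2.41e-05) and 2.86-fold higher in yDucts (1.52, adjusted p = 6.52e-06). The second probe set, 1424111_at, ran from 6.56 to 7.33 in Acini, from 8.46 to 9.08 in Ducts and from 8.72 to 9.02 in yDucts. Against Acini it rose 3.21-fold in Ducts (adjusted p = 5.79e-06) and 3.59-fold in yDucts (adjusted p = 2.43e-06). Neither probe set differed by a called amount between the organoids, and both kept their calls against Acini without either pair of Ducts arrays. After a cyclic loess normalization between the arrays the first probe set lost its calls, with differences of 0.21 (adjusted p = 0.339) and 0.41 (adjusted p = 0.0606), while the second kept them with 0.59 and 0.75.

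Grb10 is an adaptor protein that binds the insulin and IGF1 receptors and dampens their signal. Its probe set 1425458_a_at read 8.12, 8.86, 9.06 and 7.76 on Acini A to D, 7.33, 3.53, 6.27 and 6.09 on Ducts A to D, and 7.23, 7.21, 7.24 and 7.69 on yDucts A to D. All organoid arrays lay below all Acini arrays, with the yDucts arrays close together and the Ducts arrays spread widely. In Ducts it was 6.26-fold lower (-2.65, SE 0.598, adjusted p = 0.00144), and in yDucts the difference of -1.11 was not called (adjusted p = 0.112). Ducts B weighed on both: without it the fall in Ducts was 3.71-fold (adjusted p = 0.000346), and the difference of -1.11 in yDucts was called (adjusted p = 0.00739). Without Ducts A and B it was called higher in yDucts than in Ducts (1.16, adjusted p = 0.0361). The difference between yDucts and Acini was also called after quantile normalization (-1.99, adjusted p = 0.00628) and cyclic loess (-2.07, adjusted p = 0.00709). The second probe set, 1425457_a_at, read 4.30 to 5.64 in Acini, 2.96 to 3.54 in Ducts and 2.82 to 3.61 in yDucts, again without overlap of Acini and organoids. It was at least 3.54-fold lower in Ducts (adjusted p = 3.28e-05), since its mean there lay under the 30th percentile, and 3.37-fold lower in yDucts (adjusted p = 8.01e-05). The third, 1430164_a_at, lay close to the percentile and differed by -0.80 (adjusted p = 0.00925) and -0.60 (adjusted p = 0.0386), with overlapping arrays. Both calls were lost after quantile normalization, at -0.37 (adjusted p = 0.245) and -0.15 (adjusted p = 0.637), and after cyclic loess, at -0.25 and -0.03. The call in Ducts was also lost without Ducts C and D (adjusted p = 0.0818), and that in yDucts with the replicate letter as a block (adjusted p = 0.0637) and in 6 of the 12 fits that left out 1 array.

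Dlk1 is a membrane protein related to the Notch ligands that marks progenitors of several tissues and lies beside Meg3. Its probe set 1442724_at ran from 3.11 to 4.91 in Acini, 3.62 to 3.73 in Ducts and 3.28 to 3.74 in yDucts. Its other probe set, 1449939_s_at, ran from 3.24 to 4.38, 3.34 to 3.69 and 3.60 to 4.09. These levels are near the 30th percentile of the arrays, and the groups overlapped in each comparison. No difference was called, and all lay between -0.45 and 0.41. Between yDucts and Acini, leaving out Acini C gave -0.73 for the first (adjusted p = 0.0447), and leaving out Acini D gave 0.46 for the second (adjusted p = 0.0278), so the directions opposed. The second was also called higher in yDucts after quantile normalization (0.65, adjusted p = 0.0319) and cyclic loess (0.79, adjusted p = 0.00879).

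Meg3 is a long noncoding RNA of the same region as Dlk1, made from the maternal copy, and it had the most probe sets, 11, all tested. Its levels were lower in Ducts than in Acini for 9 of the 11, and higher in yDucts than in Ducts for 4. Without Ducts C and D, 5 of the 9 lower calls remained, while 1426758_s_at (adjusted p = 0.0594), 1429256_at (adjusted p = 0.0883), 1429257_at (adjusted p = 0.0636) and 1452905_at lost theirs. The probe set 1452905_at read 7.29, 7.17, 6.65 and 7.54 on Acini A to D, 7.01, 5.71, 5.42 and 4.85 on Ducts A to D, and 8.02, 8.28, 8.56 and 7.20 on yDucts A to D. Each yDucts array lay above each Ducts array, though yDucts D lay only just above Ducts A. It was 4.82-fold higher in yDucts than in Ducts (2.27, SE 0.404, adjusted p = 0.00905) and fell by 1.42 on the log2 scale from Acini to Ducts (adjusted p = 0.00674). Without Ducts C and D the difference between Ducts and Acini was -0.80 (adjusted p = 0.108).

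The probe set 1439380_x_at of Meg3 read 8.57, 8.35, 8.29 and 8.52 on Acini A to D, 7.63, 6.55, 4.64 and 4.92 on Ducts A to D, and 7.89, 8.37, 8.34 and 7.55 on yDucts A to D. All Ducts arrays were below all Acini arrays, Ducts C and D by the most, and Ducts A overlapped with yDucts. It was 5.65-fold lower in Ducts than in Acini (-2.50, SE 0.509, adjusted p = 0.000664) and 4.30-fold higher in yDucts than in Ducts (2.10, adjusted p = 0.0495), a call at the edge of the threshold that was lost after quantile normalization (adjusted p = 0.0780) and cyclic loess (adjusted p = 0.0551). The probe set 1452183_a_at ran from 7.03 to 7.98 in Acini, 4.64 to 6.36 in Ducts and 6.47 to 7.03 in yDucts. It was 2.71-fold higher in yDucts than in Ducts (adjusted p = 0.0401), a call lost after quantile normalization (adjusted p = 0.0907). Leaving out 1 array at a time lost the call of 1439380_x_at between the organoids in 10 of 12 fits and that of 1452183_a_at in 9 of 12, while 1452905_at kept its call in each.

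The fourth, 1436713_s_at, read 3.70, 2.56, 3.27 and 3.34 on Acini A to D, 4.32, 3.21, 2.57 and 2.44 on Ducts A to D, and 5.41, 5.85, 5.91 and 4.97 on yDucts A to D. It stood above the percentile on all yDucts arrays, on 1 Ducts array and on 0 Acini arrays. It passed the filter only through yDucts, where it is high, so its increase of at least 4.13-fold against Ducts and at least 3.52-fold against Acini is given as a description. It is also the single Meg3 probe set counted as higher in yDucts than in Acini, while 5 others were called lower. Among those 5, 1452906_at fell by 1.01 in yDucts and fell by 1.06 in Ducts on the log2 scale. The 7 Meg3 probe sets without a call between the organoids differed by -0.02 to 0.73 (adjusted p = 0.114 to 0.996). Against Acini, quantile normalization and cyclic loess ended the calls of 1429256_at and 1429257_at in both organoid groups and that of 1436057_at in yDucts, made 1428765_at higher by a called amount in both groups, and added lower calls of 1426758_s_at, 1439380_x_at and 1452183_a_at in yDucts. Probe sets of this locus therefore did not move alike, and which transcript form each one reads is not given in the files.

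The split within Ducts bears on Meg3 directly. With Ducts C and D left out, the difference between yDucts and Ducts was 1.65 (adjusted p = 0.0983) for 1452905_at, 0.95 (adjusted p = 0.259) for 1439380_x_at, and 0.84 (adjusted p = 0.378) for 1452183_a_at. None of these 3 calls remained, and 1436713_s_at differed by 1.77. With A and B left out, 1452905_at differed by 2.88 (adjusted p = 0.000235) and 1439380_x_at by 3.26 (adjusted p = 5.15e-06), and 1426758_s_at was called higher in yDucts as well (0.99, adjusted p = 0.0101). Rian, a noncoding RNA that lies beyond Meg3 in the same cluster, read 4.64, 4.36, 5.03 and 4.48 on Acini A to D, 4.25, 3.64, 3.64 and 3.29 on Ducts A to D, and 4.65, 5.63, 4.69 and 4.53 on yDucts A to D. It was lowest in Ducts, with no overlap with either group. It differed by 1.17 (SE 0.27, adjusted p = 0.0358) between yDucts and Ducts and by -0.92 (adjusted p = 0.00700) between Ducts and Acini. The call between the organoids was lost after quantile normalization, with the replicate letter as a block, without Ducts C and D, with only the groups compared in the fit, and in 7 of the 12 fits that left out 1 array. Mirg, a further noncoding RNA of the cluster, differed by 0.00 between the organoids, where it read 3.28 to 3.79, close to the 30th percentile of the arrays.

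Peg3 is a zinc finger protein made from the paternal copy, best known for its part in growth and maternal behaviour. Its probe set 1433924_at read 6.67, 6.91, 6.59 and 6.44 on Acini A to D, 6.72, 5.66, 5.28 and 5.59 on Ducts A to D, and 8.28, 9.54, 8.57 and 7.93 on yDucts A to D. All yDucts arrays lay above all arrays of both other groups, and Ducts A lay within the Acini arrays while Ducts B, C and D lay below them. It was 6.81-fold higher in yDucts than in Ducts (2.77, SE 0.342, adjusted p = 0.000630) and 3.80-fold higher than in Acini (1.93, adjusted p = 0.000217). From Acini to Ducts it fell by 0.84 on the log2 scale (adjusted p = 0.0409), a call lost in 8 of the 12 fits that left out 1 array and without Ducts C and D (-0.46, adjusted p = 0.324).

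The probe set 1417355_at of Peg3 read 5.89, 5.65, 5.30 and 4.63 on Acini A to D, 5.11, 4.70, 4.88 and 4.65 on Ducts A to D, and 6.51, 7.97, 6.74 and 6.31 on yDucts A to D. It was 4.13-fold higher in yDucts than in Ducts (2.05, adjusted p = 0.00582) and 1.51 higher (log2) than in Acini (adjusted p = 0.00135). The probe set 1417356_at ran from 3.55 to 4.46 in Acini, 3.76 to 4.33 in Ducts and 5.20 to 6.60 in yDucts, and was 2.94-fold higher in yDucts than in Ducts (adjusted p = 0.0137). On all 3 probe sets yDucts overlapped with neither group, and yDucts B was the highest array. With Ducts C and D left out the differences were 2.39 (adjusted p = 0.0123), 1.98 (adjusted p = 0.0572) and 1.55 (adjusted p = 0.0991), so the sizes changed little and 1 of the 3 calls remained. The other 2 probe sets, 1447731_at and 1447732_x_at, lay under the percentile on all arrays, between 2.01 and 2.6. Between yDucts and Acini, quantile normalization and cyclic loess gave 1.05 and 1.08 for 1417355_at. For 1417356_at they gave 1.65 and 1.80, against 1.48 as deposited, and each of these differences was called. Usp29, the neighbour that shares the start region of Peg3, fell by 0.99 from Acini to Ducts and fell by 1.0 from Acini to yDucts on the log2 scale and gave no call between the organoids (adjusted p = 0.999). It read 3.11 to 3.52 in Ducts and 3.22 to 3.34 in yDucts, close to the percentile, where a difference between the organoids could hardly be seen.

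**Figure D2:**
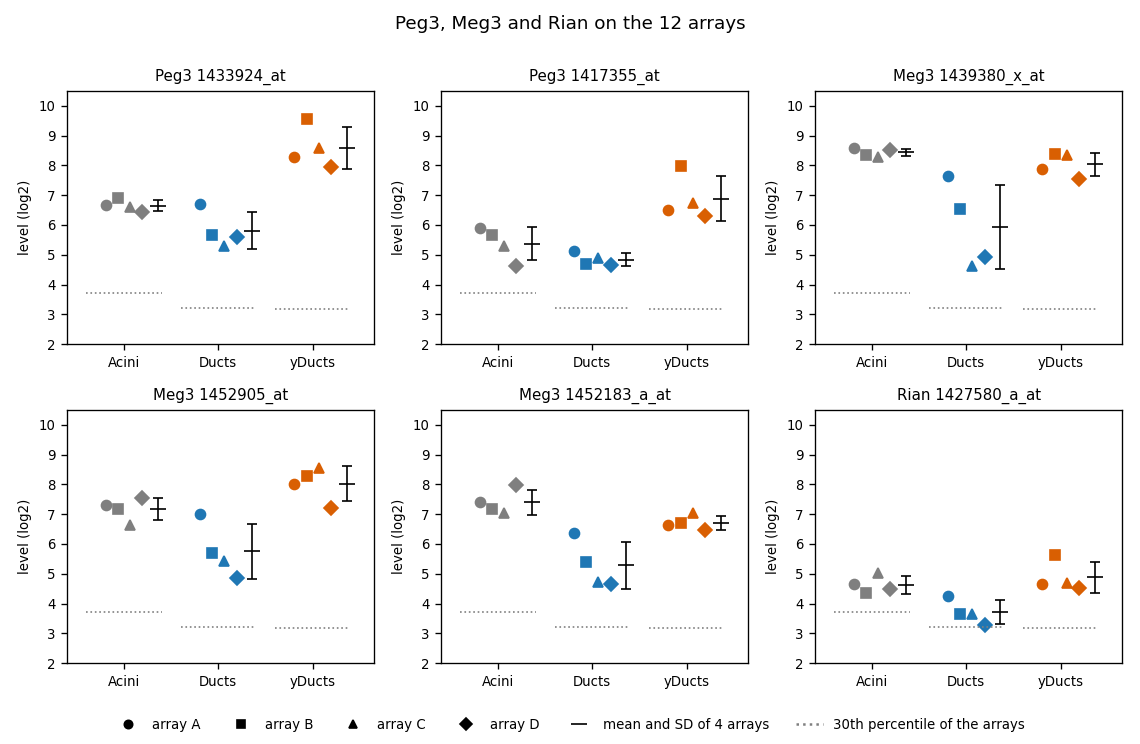
Log2 level on each of the 12 arrays, by group, for 2 Peg3 probe sets, 3 Meg3 probe sets and Rian, with bars for the mean and SD of 4 arrays and a dotted line at the 30th percentile of the arrays. The yDucts arrays of Peg3 lie above both other groups, and the Meg3 probe sets and Rian are lowest in Ducts, where Ducts A lies nearest to yDucts.

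Plagl1 is a zinc finger factor that slows the cell cycle and acts on other genes of the imprinted set. Its probe set 1426208_x_at read 9.48, 9.34, 10.05 and 9.20 on Acini A to D, 8.70, 8.73, 9.23 and 9.99 on yDucts A to D, and from 8.52 on Ducts A to 10.04 on Ducts D. The groups overlapped and no difference was called in the values as deposited. Other scalings gave calls below Acini. The difference between yDucts and Acini was -0.36 as deposited, -1.17 (adjusted p = 0.0129) after quantile normalization and -1.47 (adjusted p = 0.00234) after cyclic loess. The difference between Ducts and Acini was 0.04 as deposited, -0.76 (adjusted p = 0.0826) and -1.07 (adjusted p = 0.0158). The weaker probe set 1438588_at ran from 5.27 to 6.33 in Acini, 4.94 to 5.31 in Ducts and 4.82 to 5.05 in yDucts, and fell by 0.59 in Ducts (adjusted p = 0.0173) and by 0.78 in yDucts (adjusted p = 0.00352) on the log2 scale. The call in Ducts was lost without Ducts A and B (-0.51, adjusted p = 0.0931), with the arrays centred on their medians (-0.38) and with array weights (-0.44). The third, 1450533_a_at, lay between 3.06 and 4.23 and was not called.

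Cdkn1c encodes p57, an inhibitor of cyclin-dependent kinases that stops cells from dividing as they mature. It read 7.05, 7.01, 6.68 and 6.25 on Acini A to D, 5.64, 6.12, 6.44 and 6.59 on Ducts A to D, and 5.62, 6.29, 5.48 and 5.66 on yDucts A to D. The lowest Acini array lay within the organoid range, so the groups overlapped, with yDucts lowest on average. It was 1.98-fold lower in yDucts than in Acini (-0.98, SE 0.252, adjusted p = 0.00337). The difference between Ducts and Acini was -0.55 (adjusted p = 0.0654) as deposited, and whether it was called depended on the setting. It was called after quantile normalization (-1.29, adjusted p = 0.000614), without Ducts C and D (-0.87, adjusted p = 0.0201), without Acini D (-0.72, adjusted p = 0.0238) and without Ducts D (-0.68, adjusted p = 0.0373). It was smaller without Ducts A and B (-0.23, adjusted p = 0.460), with the arrays centred on their medians (-0.34, adjusted p = 0.248) and with array weights (-0.35, adjusted p = 0.309).

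Mest encodes a membrane enzyme of the hydrolase fold made from the paternal copy. It read 5.20, 4.95, 5.15 and 4.42 on Acini A to D, 5.79, 4.98, 5.78 and 6.47 on Ducts A to D, and 5.03, 5.57, 4.81 and 4.74 on yDucts A to D. Ducts B lay among the Acini arrays and the other Ducts arrays lay above them. Mest was 1.77-fold higher in Ducts than in Acini (0.82, SE 0.293, adjusted p = 0.0222). The difference was 0.45 (adjusted p = 0.215) without Ducts C and D and 1.19 (adjusted p = 0.00382) without A and B. Without Acini D alone it was 0.65 (adjusted p = 0.0725), and without Ducts D alone 0.59 (adjusted p = 0.0754). Quantile normalization gave 0.71 (adjusted p = 0.0585). Between yDucts and Ducts it was -0.72 (adjusted p = 0.294), and -1.09 (adjusted p = 0.0332) without Ducts A and B.

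**Figure D3:**
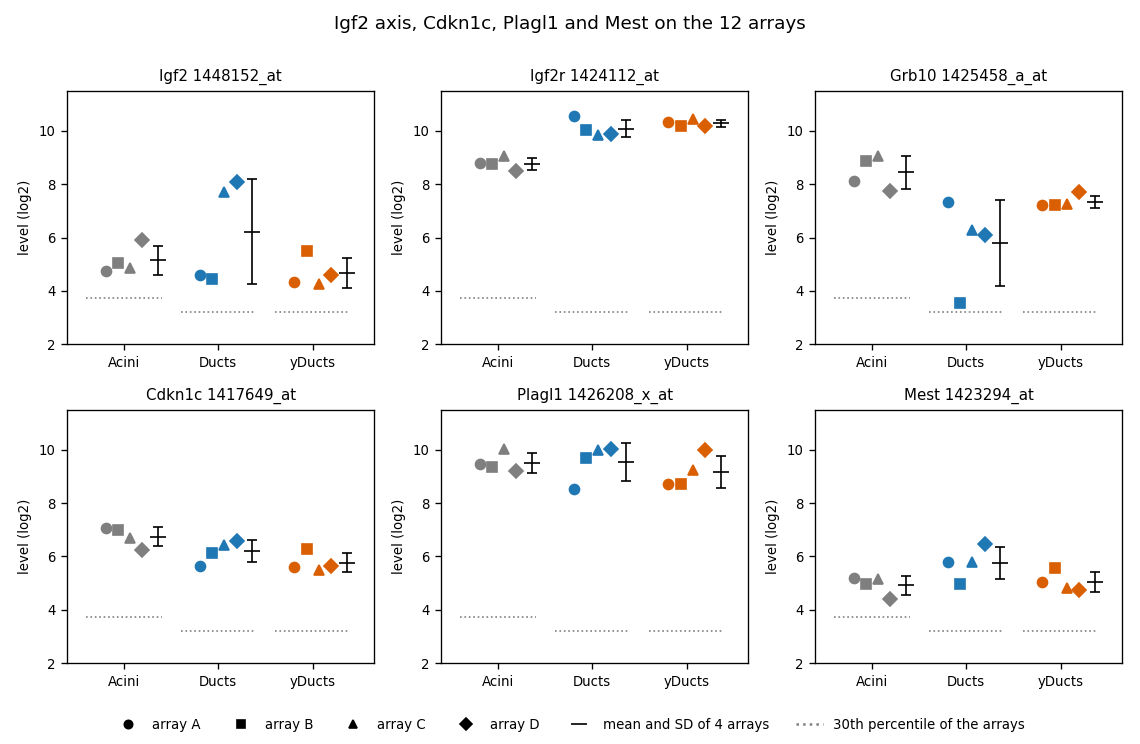
Log2 level on each of the 12 arrays, by group, for the probe set with the highest mean of Igf2, Igf2r, Grb10, Cdkn1c, Plagl1 and Mest, with bars for the mean and SD of 4 arrays and a dotted line at the 30th percentile of the arrays. Igf2 stands out on Ducts C and D alone, Igf2r is higher on every organoid array than on every Acini array, and the groups of Plagl1 overlap.

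By mean level the order of the groups differed between members. Peg3 was highest in yDucts. Grb10 was lowest in Ducts on its 3 probe sets, without a called difference from yDucts. Meg3 was lowest in Ducts on most probe sets, but 7 of 11 gave no call between Ducts and yDucts. Most of its 4 calls there were lost without Ducts C and D. Igf2r was lowest in Acini, with no called difference between Ducts and yDucts. Cdkn1c was highest in Acini, with no called difference between the organoids.

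A wider list of 63 other imprinted genes gives the setting, of which 53 were on the array and 45 were tested with 1 probe set per gene. Against Acini, 18 of them rose in Ducts and 16 fell, and in yDucts 19 were higher and 15 lower. Over all genes, 42.4% were called higher and 32.9% lower in Ducts and 43.4% and 32.3% in yDucts. The list's medians were 0.03 and 0.21, against 0.21 and 0.24 over all genes. The largest differences without overlap of the groups were those of Ins2, the insulin gene beside Igf2 (-7.23 and -7.07), Ddc, a neighbour of Grb10 that makes dopamine and serotonin from their precursors (-5.20 and -5.35), and Impact, a regulator of translation under stress (3.57 and 3.21). Ddc lay under the 30th percentile on every organoid array. Ins2 is also a marker of beta cells, and the Acini arrays also read the hormone genes Iapp at 9.14 and Gcg at 8.37 on average. Casd1, which acetylates sialic acids, was 2.56 higher in Ducts and 2.59 higher in yDucts than in Acini.

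Neighbours of the members did not all share a member's direction. Airn, the antisense RNA from the Igf2r locus, was 2.01 higher in Ducts (adjusted p = 1.19e-05) and 1.85 higher in yDucts (adjusted p = 2.46e-05) than in Acini, as was Igf2r itself, and whether its probe set reads Airn RNA alone is not given in the files. Phlda2, a brake on placental growth from the Cdkn1c cluster, was 1.95 and 1.25 higher, while Cdkn1c fell in yDucts. Copg2 and Klf14, neighbours of Mest, differed by 1.92 and -1.29 in Ducts. These neighbours were chosen with their values known.

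Between the organoids, 1 of the 45 other imprinted genes was higher in yDucts, 1 was lower and 43 were not called, against 2.01% and 0.881% over all genes. The higher one was Rian. The lower one was Ampd3, an AMP deaminase, which read 3.24, 3.21, 3.35 and 3.48 on Acini A to D, 6.50, 6.96, 6.27 and 6.56 on Ducts A to D, and 4.81, 4.03, 5.17 and 4.64 on yDucts A to D. The 3 groups did not overlap, and the difference was -1.91 (adjusted p = 0.000406).

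Of 28 tested genes of the IGF pathway, 10 rose and 10 fell from Acini to Ducts, and 12 were higher and 10 lower in yDucts, against 42.4% and 32.9% of all genes in Ducts and 43.4% and 32.3% in yDucts. The medians were -0.15 and -0.17, against 0.21 and 0.24 over all genes. Between the organoids limma called 0 of them, with 3 higher and 0 lower at an unadjusted p under 0.05. The widest change was that of the ligand Igf1, which read 9.96 ± 0.07 (SD, n = 4) in Acini, 3.65 ± 0.09 in Ducts and 3.88 ± 0.22 in yDucts. Igfals, which holds IGF in a complex in the blood, fell by 2.70 and 2.69 on the log2 scale. Irs1, the docking protein of the receptor, rose by 2.76 in Ducts and by 2.34 in yDucts. Grb7, a relative of Grb10, rose by 2.94 and 2.72, opposite to Grb10, and the secreted binding protein Igfbp7 rose by 2.21 in Ducts and by 2.54 in yDucts.

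Genes that lay down, keep or read imprints formed another list. Of 23 tested, 15 were higher and 3 lower in Ducts, and 13 were higher and 5 lower in yDucts. Between the organoids limma called 0 of them, with 0 higher and 1 lower at an unadjusted p under 0.05. The medians were 0.91 and 1.03, against 0.21 and 0.24 over all genes, where 42.4% and 43.4% were higher and 32.9% and 32.3% lower. The largest differences were those of Smchd1, a chromatin protein that silences imprinted clusters (2.39 and 2.29), Eed, a Polycomb subunit (2.08 and 2.12), Zfp445, which protects imprints from loss of methylation (1.80 and 1.93), and Arid4b (1.91 and 1.86).

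Among 16 cyclin-dependent kinases, cyclins and inhibitors of the pathway in which Cdkn1c acts, 10 were higher and 1 lower in Ducts, and 12 were higher and 0 lower in yDucts, the same by limma at an unadjusted p under 0.05. The medians were 1.04 and 1.82, beside the same values over all genes as for the list before. The inhibitor Cdkn2b rose by 4.75 in both, cyclin D1 (Ccnd1) by 4.26 and 4.36, and the kinase Cdk4 by 3.22 and 3.04. Cdkn2a, which encodes p16 and ARF, rose by 2.24 in Ducts and by 3.32 in yDucts, and Cdk6 rose by 2.71 and 2.68. On Acini A Cdkn2a read 5.12, while Acini B to D read 2.75 to 2.87, under the percentile of the arrays. Between the organoids 1 of the 16 was called, Cdkn2c, which was 1.22 higher in yDucts (adjusted p = 0.0112). Over all genes 2.01% were called higher there and 0.881% lower. At an unadjusted p under 0.05 in limma, 5 of the 16 were higher and 0 lower. Cdkn2c ran from 7.31 to 7.92 in Acini, 5.84 to 6.76 in Ducts and 7.03 to 7.64 in yDucts, so it was lowest in Ducts.

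Imprinted growth genes are often expressed together with extracellular matrix genes, and a list of 13 tested matrix genes was set beside them. In Ducts 12 were lower and 1 higher than in Acini, and in yDucts 11 were lower and 2 higher. Of all genes, 32.9% were lower and 42.4% higher in Ducts, and 32.3% and 43.4% in yDucts. Decorin (Dcn) fell by 7.47 and 7.41, Col3a1 by 7.06 in both, Col1a2 by 5.12 and 5.31, and Sparc by 5.74 and 5.18 on the log2 scale. Of these, Dcn, Col3a1 and Col1a2 are also in the fibroblast and pericyte list. Between the organoids 2 of the 13 were called, both higher in yDucts, against 2.01% of all genes called higher. Gpc3, a cell surface proteoglycan that restrains growth, read 5.89, 6.16, 6.24 and 5.74 on Acini A to D, 4.97, 3.90, 4.0 and 3.96 on Ducts A to D, and 7.93, 8.36, 8.10 and 7.58 on yDucts A to D. As with Peg3, yDucts lay above both other groups, and the difference from Ducts was 3.78 (adjusted p = 2.11e-06). Fstl1, a secreted glycoprotein, was 2.96 higher in yDucts than in Ducts (adjusted p = 4.65e-05). Unlike Gpc3 it was highest in Acini, with 7.23 to 8.07 there, 3.16 to 3.93 in Ducts and 5.91 to 6.86 in yDucts.

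Markers of fibroblasts and pericytes are given beside Peg3 and Meg3, both of which such cells also express. Of 16 stromal markers, 1 was higher in yDucts than in Ducts, 0 were lower and 15 were not called, with the same counts at an unadjusted p under 0.05 in limma. Over all genes 2.01% were called higher and 0.881% lower. The higher marker was vimentin (Vim), which read 8.75, 9.18, 9.10 and 8.05 on Acini A to D, 4.07, 3.41, 3.55 and 3.46 on Ducts A to D, and 10.96, 9.51, 10.78 and 10.76 on yDucts A to D. It differed by 6.88 (adjusted p = 4.54e-08). The summed level of the list (log2 of the sum of linear values) ran from 12.06 to 12.92 in Acini, 7.74 to 7.83 in Ducts and 9.87 to 11.10 in yDucts. Without Vim it ran from 11.96 to 12.80, 7.66 to 7.77 and 7.70 to 7.75. Col3a1, Rgs5, Pdgfra and Postn, 4 of the 16, lay under the 30th percentile on every array of both organoid groups, and each of the other 12 lay above it on at least 1 array of each group. The part of stromal cells in the levels of Peg3 and Meg3 was not tested.

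**Figure D4:**
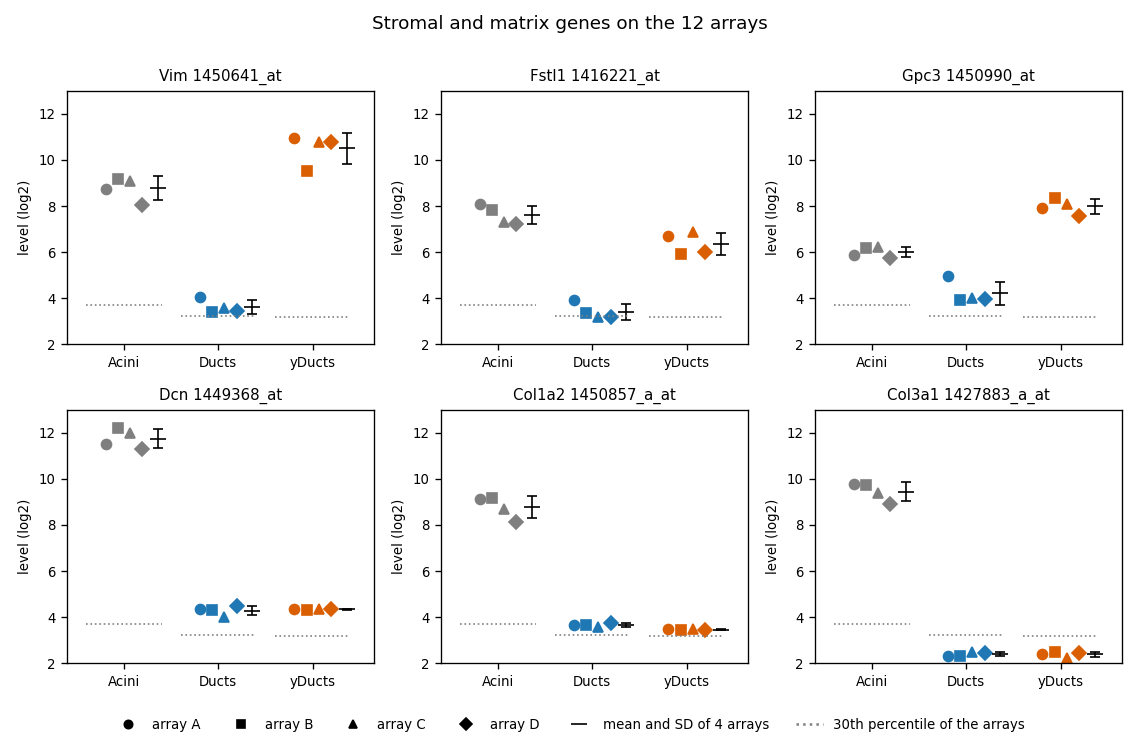
Log2 level on each of the 12 arrays, by group, for 6 stromal and matrix genes, with bars for the mean and SD of 4 arrays and a dotted line at the 30th percentile of the arrays. Vim, Fstl1 and Gpc3 are higher in yDucts than in Ducts, with Fstl1 highest in Acini, while Dcn, Col1a2 and Col3a1 are high in Acini alone.

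The genes whose levels ran most like each member over the 12 arrays were found by Pearson correlation of the probe set with the highest mean, among the tested genes. These values are descriptions, because the arrays of a group share their source and the differences between the groups set most of the correlation. Igf2r ran most like Yap1 (r = 0.993) and the ubiquitin ligase gene Ttc3 (r = 0.989). Yap1, the gene of the factor induced in yDucts, was 1.12 higher in Ducts and 1.29 higher in yDucts than in Acini, so it rose in both organoid groups. Igf2 ran most like Dpp7 (r = 0.955), a dipeptidase, and Jade1 (r = 0.953), which were likewise high on Ducts C and D with 9.80 and 9.99 for Dpp7 and 10.12 and 10.51 for Jade1.

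Meg3 ran most like Adamts9 (r = 0.976), a matrix protease, and Nrp1 (r = 0.962), a receptor for semaphorins and VEGF, both lowest on Ducts C and D. Peg3 ran most like Cyp2d22 (r = 0.961) and the extracellular superoxide dismutase Sod3 (r = 0.958), both highest in yDucts. Grb10 ran most like Tbc1d16 (r = 0.946) and Nfil3 (r = 0.939), and Cdkn1c most like Mfsd11 (r = 0.940) and Ivd (r = 0.934). For Mest the closest were Zfp568 (r = 0.922) and Pacs2 (r = 0.917), for Dlk1 Dnaic1 (r = 0.947) and Rnf180 (r = 0.923), and for Plagl1 Depdc7 (r = 0.814) and Slc1a5 (r = 0.803).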

How the data were processed

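RNA of 12 samples was hybridised to Affymetrix mouse arrays, 4 each of Acini, Ducts and yDucts. The authors deposited 1 log2 value per probe set and array, with 2 decimals. RMA is the tool in the submitters' processing notes, a method of background correction, quantile normalization and median polish, with no version. The sources do not say whether all arrays were run together. Gene symbols came from the platform annotation, where 34945 probe sets carried 1 symbol and 932 several. Probe sets above the 30th percentile of their array on at least 4 arrays (33436) entered a limma fit (limma 3.58.1, R 4.3.3) with a group-means model over all 12 arrays (9 residual and 4.19 prior degrees of freedom), with Benjamini-Hochberg adjustment and two-sided tests. For the folds of member probe sets, where a group's mean lay under the percentile, its values were raised to it and the fold is a lower bound. Log2 differences, of members and of the other lists, are as deposited, also where a group lay under the percentile. The script was tested on simulated data. Other lists used 1 probe set per gene, that with the highest mean (14990 genes). The text names all members, up to 4 genes with the largest called, non-overlapping difference per comparison and list, and the 2 closest genes of each member. Neighbours of members beyond this rule were chosen after their values were seen. The members and lists were chosen with earlier results of these data known. Precision is limited by the 4 arrays per group. Alternatives changed the filter, the normalization between arrays, the choice of probe set, the weights, the block and the arrays left out.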

Additional observations from a re-analysis of the deposited data

Results flagged for a closer look

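Of 81 groups of 4 arrays, 5 held an array that stood apart by Dixon's criterion, and chance gives about 1 in 20. Grb10 1425457_a_at read 2.82 on yDucts A, where the nearest array read 3.48. Grb10 1425458_a_at read 7.69 on yDucts D, against 7.24. Grb10 1430164_a_at read 3.69 on Ducts A, against 3.06. Meg3 1428765_at read 3.45 on Acini D, against 3.11, all of them under the 30th percentile of their arrays. Peg3 1417356_at read 6.60 on yDucts B, against 5.33, and that array was also the highest for the other tested Peg3 probe sets.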

How the results depend on the processing

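Of 1863 differences of member probe sets under alternative settings, 1664 kept their direction and side of the threshold. For part of this total the direction could not change, since leaving out an array of the group not compared leaves the difference itself as it was. Counts of calls are not in this total and are given next. Leaving out 1 array at a time gave 16 to 17 called member probe sets in Ducts minus Acini (17 with all arrays), 12 to 17 in yDucts minus Acini (15) and 5 to 8 in yDucts minus Ducts (7), and for the other imprinted genes 30 to 35, 31 to 35 and 1 to 3. With 1 probe set per gene, the member calls were 5, 3 and 2, and with the mean of a gene's probe sets 4, 4 and 2, since fewer values are tested. Without Ducts C and D they were 11 in Ducts minus Acini and 2 in yDucts minus Ducts, and without A and B 11 in the latter. Array weights gave 16 in yDucts minus Ducts, where they also raised the calls over all probe sets from 777 to 11754 of 33436 (35.2%), and without A and B 12.1% of all probe sets were called there. For the other imprinted genes in yDucts minus Ducts (2), quantile normalization gave 1, array weights 16, no Ducts A and B 7, and no C and D 1. For these counts the cause was not tested.

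Another scaling shifts all genes: the median difference over all probe sets moved from 0.16 to 0.00 (quantile), 0.01 (cyclic loess) and 0.37 (median centring) in Ducts minus Acini, and from 0.13 to -0.01, 0.00 and 0.35 in yDucts minus Acini. Signs turned as follows, none of them a called change as deposited. In Ducts minus Acini, quantile and loess gave Peg3 1417356_at 0.31 and 0.22, Plagl1 1426208_x_at -0.76 and -1.07, Meg3 1428765_at 0.42 and 0.50, Meg3 1436713_s_at 0.32 and 0.45, Dlk1 1442724_at 0.06 and 0.27, and Dlk1 1449939_s_at 0.27 and 0.36. Centring gave Peg3 1417356_at 0.14, Meg3 1428765_at 0.16, Meg3 1436713_s_at 0.13 and Dlk1 1449939_s_at 0.02, and array weights gave Meg3 1428765_at 0.01. Without Ducts C and D, Plagl1 1426208_x_at was -0.42, Meg3 1436713_s_at 0.55 and Igf2 1448152_at -0.62. In yDucts minus Acini, Plagl1 1450533_a_at was 0.19 and 0.27 and Meg3 1452905_at -0.05 and -0.07 under quantile and loess, Mest -0.04 and Dlk1 1442724_at 0.12 under loess, and Meg3 1426758_s_at 0.11 when centred. In yDucts minus Ducts, Meg3 1429257_at was 0.03 without A and B. Without C and D, Igf2r 1424111_at was -0.05, Igf2r 1424112_at -0.01, Plagl1 1426208_x_at 0.06, Meg3 1429256_at -0.01, Meg3 1452906_at -0.02 and Igf2 1448152_at 0.15. Leaving out 1 array, ranges that cross 0 were Dlk1 1442724_at -0.56 to 0.04, Dlk1 1449939_s_at -0.33 to 0.05, Meg3 1428765_at -0.13 to 0.04, Meg3 1436713_s_at -0.48 to 0.15, Peg3 1417356_at -0.26 to 0.04 and Plagl1 1426208_x_at -0.12 to 0.39 in Ducts minus Acini, Mest -0.07 to 0.21 in yDucts minus Acini, and Meg3 1429257_at -0.10 to 0.04 in yDucts minus Ducts.

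Beyond the calls named in the report, leaving out 1 array ended those of Meg3 1436057_at (5 of 12 fits) and Meg3 1429256_at (1 of 12) in yDucts minus Acini. It added Meg3 1452905_at (2 of 12) and 1452183_a_at (1 of 12) there and Meg3 1426758_s_at (1 of 12) in yDucts minus Ducts.

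The letters A to D do not pair the arrays by any label. Deviations from the group means of same-lettered yDucts and Ducts arrays correlated at 0.112 (A), -0.302 (B), -0.299 (C) and 0.067 (D). With the letter as a replicate block, 17, 14 and 5 member probe sets were called in the 3 comparisons, and 33, 36 and 1 of the other imprinted genes. The calls of Meg3 1439380_x_at (adjusted p = 0.0529) and 1452183_a_at (adjusted p = 0.0697) between the organoids were lost.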
